A study of Mus musculus with 2 samples.

Results

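The genes described here are the ubiquitin-conjugating enzymes, whose array names start with Ube2, and the ubiquitin-specific proteases, whose names are Usp followed by a digit, without the interferon-induced Usp18. They were found by name on a mouse array: 80 gene names of 27845, 31 Ube2 and 49 Usp, on 188 of its 41174 gene probes, 81 Ube2 and 107 Usp. A probe counted as measured if the authors' deposited table of log2 ratios listed it, which held for 35 probes, 23 of 15 Ube2 genes and 12 of 12 Usp genes. RNA came from the pancreatic lymph node of female NOD mice aged 16 weeks, an inbred strain that develops autoimmune diabetes spontaneously. Each of 2 hyperglycemic mice (blood glucose above 500 mg/dl) was read in Cy5 on 1 array of its own, against the Cy3 signal of 1 pool of 2 euglycemic mice (below 200 mg/dl). No transgene, knockout or drug is named for either group. The pool is a single control sample that both arrays share, so the files hold no spread among euglycemic mice. The dyes were not swapped, and a dye effect cannot be told apart from the difference between the groups.

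Ubiquitin is a small protein that cells attach to other proteins through a relay of an activating enzyme, a conjugating enzyme (E2) and a ligase (E3). The E2 carries ubiquitin as a thioester and often sets which kind of chain is built; some members of the family carry a like modifier such as NEDD8 or ISG15 in its place. Ubiquitin-specific proteases are the largest class of deubiquitinating enzymes and remove ubiquitin from substrates or trim chains. In lymphocytes both kinds of enzyme act on antigen receptor and NF-kappa-B signalling, on cell division and on the degradation of misfolded proteins of the endoplasmic reticulum.

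Ube2 probes entered the deposited table more often than Usp probes. Of the 81 Ube2 probes 28.4% were measured and of the 107 Usp probes 11.2%, against 12.3% of all gene probes. Counted by name, 48.4% of Ube2 names and 24.5% of Usp names had a measured probe. In Cy3, the channel of the pool, 39 Ube2 and 22 Usp probes were well above background on array 1 and 76 and 87 on array 2, where 21.2% and 62.4% of all gene probes were. In Cy5, that of the hyperglycemic mouse, 25 Ube2 and 17 Usp probes were on array 1 and 30 and 20 on array 2, where 14.1% and 15.9% of all gene probes were. Of the 153 members outside the table, 133 (86.9%) were not well above background in Cy5 on either array, against 94.6% of all gene probes outside it, and 2 were on both, a Usp15 and a Usp3 probe. Genes without a measured probe included Ube2c and Ube2t of dividing cells, the ISG15 carrier Ube2l6, the Lys63 chain enzyme Ube2n, the proteasome-bound Usp14 and Usp22 of the SAGA complex; no fold is given for them. The family rule also took in Usp6nl, which is a GTPase-activating protein and no protease, and Usp52, now Pan2 of the deadenylase complex; neither was measured.

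Values are log2 ratios of the hyperglycemic mouse over the pool, so 1 means a 2-fold higher signal, and each mean is given ± SD over the 2 mice (n = 2). A probe was called when limma's moderated test of its mean against 0 gave an adjusted p under 0.05 over the 5072 gene probes tested. By that rule 43.5% of all tested probes were called, 25.1% higher and 18.4% lower, so a call alone does not set a gene apart here. Of the 23 Ube2 probes 8 were called higher (34.8%), 2 lower (8.7%) and 13 were not called. Of the 12 Usp probes 6 were called higher, 1 lower (8.33%) and 5 were not called. Past log2 of 1 on both arrays lay 3 Ube2 probes and 1 Usp probe on the high side, where 5.3% of all tested probes lay, and 0 on the low side, where 2.86% of all probes lay.

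**Figure D1:**
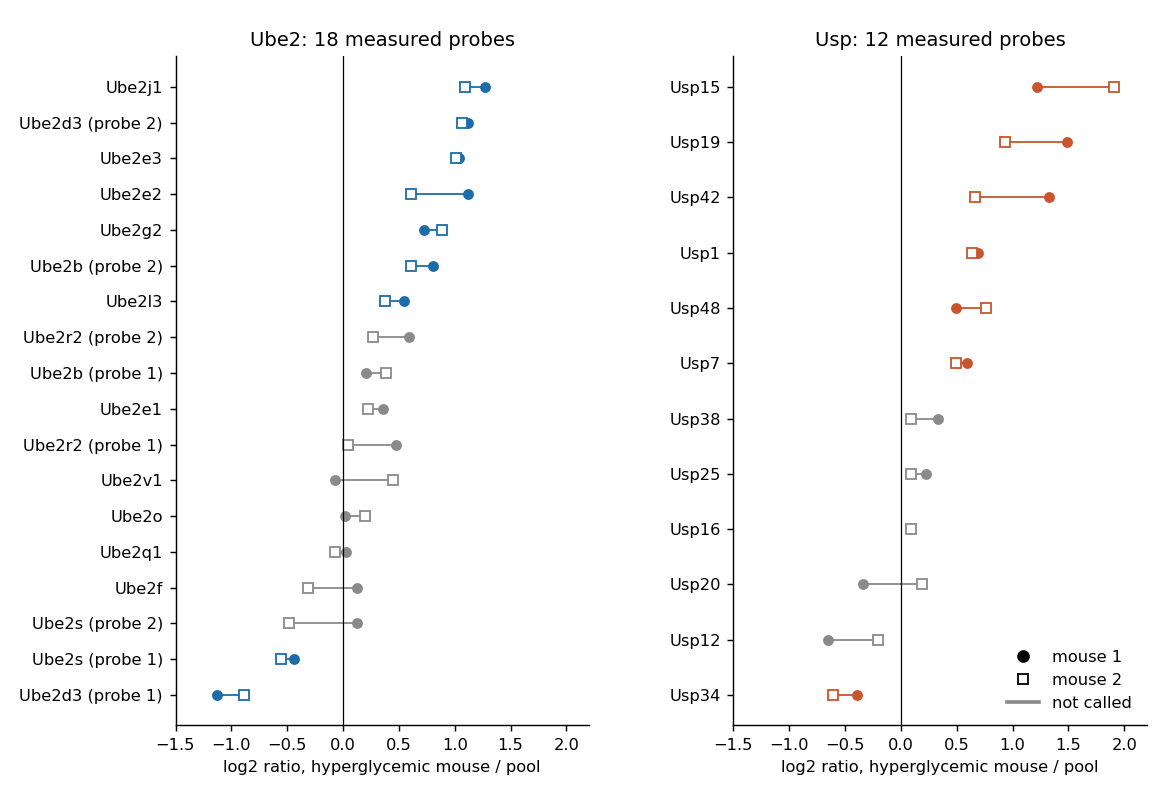
Log2 ratio (horizontal axis) of 18 measured Ube2 probes (left) and the 12 measured Usp probes (right) in hyperglycemic mouse 1 (filled circle) and mouse 2 (open square), joined by a line, in order of the mean. Coloured probes were called at an adjusted p under 0.05 and grey ones were not; Ube2d3 has 1 probe near each end of the Ube2 panel, and Usp15 leads the Usp panel at 1.22 and 1.91.

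The 2 measured conjugating enzymes that work at the endoplasmic reticulum were higher in both mice. Ube2j1, a tail-anchored E2 of the reticulum membrane that serves the degradation of misfolded proteins, was at 1.27 in mouse 1 and 1.09 in mouse 2. Its mean of 1.18 ± 0.12 is a 2.27-fold higher signal (limma adjusted p = 0.00178), and its probe lies on chromosome 4, 33378560 to 33378619, of build mm8. Ube2g2, the E2 partner of the ligase gp78 in the same pathway, was at 0.72 and 0.88, a mean of 0.80 ± 0.11 and a 1.74-fold higher signal (limma adjusted p = 0.0065). Its probe lies on chromosome 10, 77089485 to 77089544. Both mice were above the pool for both genes. These 2 were the only measured members of the group of 4 named for this role. The others, Ube2g1 and Ube2j2, had no measured probe, and no fold is given for them. Each had a probe well above background in Cy3, the pool's channel, on both arrays. None of their probes was well above background in Cy5 on both arrays. Another Ube2j1 probe, not well above background in Cy5, read 1.76 and 1.08 in the scanning software's ratios. Of the other Ube2g2 probes, 1 read 2.06 and 2.05 and 1 read 0 and -0.50, both not well above background in Cy5.

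The broadly acting E2 enzymes of the Ube2d and Ube2e groups and Ube2l3 were mostly higher. Ube2e3 and Ube2e2, E2 enzymes with an extended amino terminus, had means of 1.02 ± 0.02 (1.04 and 1.01 in mice 1 and 2) and 0.86 ± 0.36 (1.12 and 0.61). The third of that group, Ube2e1, was at 0.36 and 0.22 and was not called (limma adjusted p = 0.166). Ube2l3, which hands ubiquitin to HECT and RBR ligases, among them the linear chain complex, was at 0.54 and 0.38, a mean of 0.46 ± 0.12. Its limma adjusted p of 0.0472 lay just under the threshold and rose to 0.0601 when the ratios were centred on their median. A further Ube2l3 probe, dim in Cy5, read -1.49 and -2.49 in the software's ratios, against the called probe. Dim probes of Ube2e2 and Ube2e3 read 0 and -0.98, and 0 and -0.25. Of the 6 probes of this group 4 were called higher and 1 lower, where 25.1% and 18.4% of all tested probes were. The called probes include both of Ube2d3, which went opposite ways. The median of the group was 0.66 against 0.06 over all tested probes.

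Ube2d3, a promiscuous E2 that many RING ligases use, gave opposite ratios on its 2 measured probes. The probe whose ends lie 2929 bases apart on chromosome 3 (135397453 to 135400381) read 1.12 and 1.07, a mean of 1.09 ± 0.04 and a 2.13-fold higher signal (limma adjusted p = 0.00214). The other, 3200 bases further on (135403582 to 135403641), read -1.13 and -0.89, a mean of -1.01 ± 0.17 and a 2.01-fold lower signal (limma adjusted p = 0.00313). The gap between the probes was 2.10, made of 2.25 on array 1 and 1.96 on array 2, far above the SD of either probe. Among 574 gene names with several measured probes, 22 (3.83%) had calls in both directions and 1 had a wider gap than Ube2d3. The other 2 Ube2d3 probes on the array read -0.86 and -1.37, and -0.39 and -0.78, in the software's ratios, and neither was well above background in Cy5 on both arrays. No direction can therefore be given for the gene as a whole. Which transcripts the probes detect was not tested, and the array's names do not separate them.

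The E2 enzymes of mitosis and DNA repair moved both ways. Ube2s, which extends Lys11 chains for the anaphase-promoting complex, was at -0.44 and -0.56, a mean of -0.50 ± 0.08 and a 1.41-fold lower signal (limma adjusted p = 0.0359; chromosome 7, 4411223 to 4411282). A further probe with that name, which the array places on chromosome 9 (56236390 to 56236441), was at 0.12 and -0.48 and was not called. Of the 3 measured genes of dividing cells, Mki67 was lower at -0.54 ± 0.01, Birc5 higher at 0.96 ± 0.68, and Cdc20 was at -0.41 ± 0.19 and not called; their part in the Ube2s ratio was not tested. Ube2b, a homologue of yeast Rad6 that acts on histone H2B and in tolerance of damaged DNA, was called on 1 of its 2 probes. That probe read 0.80 and 0.61 (0.71 ± 0.14, limma adjusted p = 0.0106; chromosome 11, 51830079 to 51830138). The other, which overlaps it by 19 bases, read 0.21 and 0.38 (limma adjusted p = 0.164). The 4 Ube2b probes outside the table, none well above background in Cy5 on both arrays, read from -0.55 to 0.91 in mouse 1 and from -2.16 to 0.55 in mouse 2. The remaining measured E2 genes were not called: Ube2r2, a partner of cullin ligases, read 0.47 and 0.04 on 1 probe and 0.59 and 0.27 on another that overlaps it by 44 bases. Ube2f, a NEDD8 carrier, was at 0.12 in mouse 1 and -0.31 in mouse 2 and was not called. Ube2v1, the inactive partner of Ube2n, Ube2o and Ube2q1 had means from -0.02 to 0.19.

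Among the proteases Usp15, which acts on SMAD signalling and on Mdm2, had the highest ratio. It was at 1.22 in mouse 1 and 1.91 in mouse 2, a mean of 1.56 ± 0.49 and a 2.96-fold higher signal (limma adjusted p = 0.00158; chromosome 10, 122555514 to 122555555). Both mice lay above a 2-fold rise. The array has 6 other Usp15 probes. The 1 that was well above background in Cy5 on both arrays read 1.35 and 0.83 in the software's ratios. Another, well above background in Cy5 in mouse 2 only, read 0.88 and 1.16. The rest were dim in Cy5 on both arrays and disagreed. They read 1.80 and 1.38, 0.69 and -1.60, 0 and -0.78, and 0 and -1.13, where 0 stands for substitute values in both channels.

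Usp19, which is anchored in the membrane of the endoplasmic reticulum, was at 1.49 and 0.93, a mean of 1.21 ± 0.39 and a 2.31-fold higher signal (limma adjusted p = 0.0028; chromosome 9, 108359585 to 108359644). Usp42, a protease of p53, was at 1.32 and 0.66 (0.99 ± 0.47, limma adjusted p = 0.00703). Its probe was dimmer than all but 0.99% of the tested probes, and with the trend of ratios on brightness removed it was at 0.34 with an adjusted p of 0.123. Usp1, which removes ubiquitin from PCNA and FANCD2, was at 0.69 and 0.64 (0.67 ± 0.04, limma adjusted p = 0.0121). Usp48 was at 0.49 and 0.77 (0.63 ± 0.19, limma adjusted p = 0.018), and at 0.42 with an adjusted p of 0.0705 after the same removal. Usp7, known for deubiquitinating Mdm2 and p53, was at 0.60 and 0.49 (0.54 ± 0.07, a 1.46-fold higher signal, limma adjusted p = 0.0262). On these probes all 6 proteases were above the pool in both mice. Probes outside the table, all dim in Cy5, read lower for 2 of them, Usp42 at -1.62 and -0.79, and Usp48 at -0.73 and -1.38 on 1 probe and -0.44 and -1.63 on another. A dim Usp19 probe read 0 and 0.71.

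Usp34, an enzyme of Wnt signalling that acts on axin, was the protease called lower. It was at -0.40 and -0.61, a mean of -0.50 ± 0.15 and a 1.42-fold lower signal (limma adjusted p = 0.0371; chromosome 11, 23389424 to 23389483). Of 3 further Usp34 probes, all dim in Cy5, 2 read -0.66 and -1.19, and -0.45 and -0.88, and the third read 0 and -0.56. Usp12, which works with the cofactor Uaf1, was at -0.65 and -0.21 and was not called (limma adjusted p = 0.0816). Usp16, a histone H2A protease, was at 0.08 and 0.09, with a 95% interval of the mean from -0.27 to 0.44. Usp20 was at -0.34 in mouse 1 and 0.19 in mouse 2. Usp25 and Usp38 had means of 0.16 and 0.21 and were not called.

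**Figure D2:**
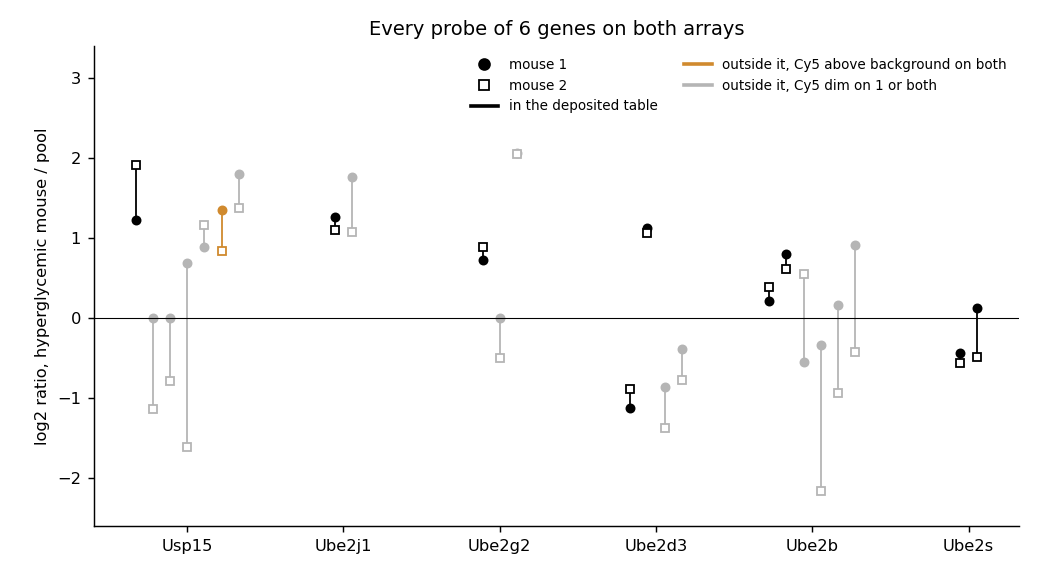
Log2 ratio (vertical axis) of every probe of 6 genes in hyperglycemic mouse 1 (filled circle) and mouse 2 (open square), with probes of the deposited table in black, the 1 probe outside it whose Cy5 signal was well above background on both arrays in orange, and dimmer probes in grey. The black Ube2d3 probes lie at 1.09 and -1.01 on average, and the black and orange Usp15 probes lie above 0.8 in both mice.

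Which family had the higher median depended on the array and on the scaling. The median mean ratio was 0.29 over the Ube2 probes and 0.38 over the Usp probes, against 0.06 over all 5072 probes. On array 1 the Ube2 median minus the Usp median was -0.05 and on array 2 it was 0.04. With 1 probe per gene name, the brightest, the difference was 0.08. The Usp probes were dimmer, with a median log2 signal of 9.83 against 10.55 for Ube2 and 10.44 for all tested probes. Ratios depended on brightness: the dimmest 1015 of the probes had a median of 0.28 with 37.0% called higher, and it held 5 of the 12 Usp probes, 3 of them called higher, but 3 of the 23 Ube2 probes, 0 called. With that trend removed by a further loess on intensity, the Ube2 median was 0.31 and the Usp median 0.21, and the difference was 0.21 on array 1 and 0.19 on array 2. Then 8 Ube2 probes were called higher and 3 lower, and 4 Usp probes higher and 1 lower, where 22.7% of all tested probes were higher and 21.8% lower.

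**Figure D3:**
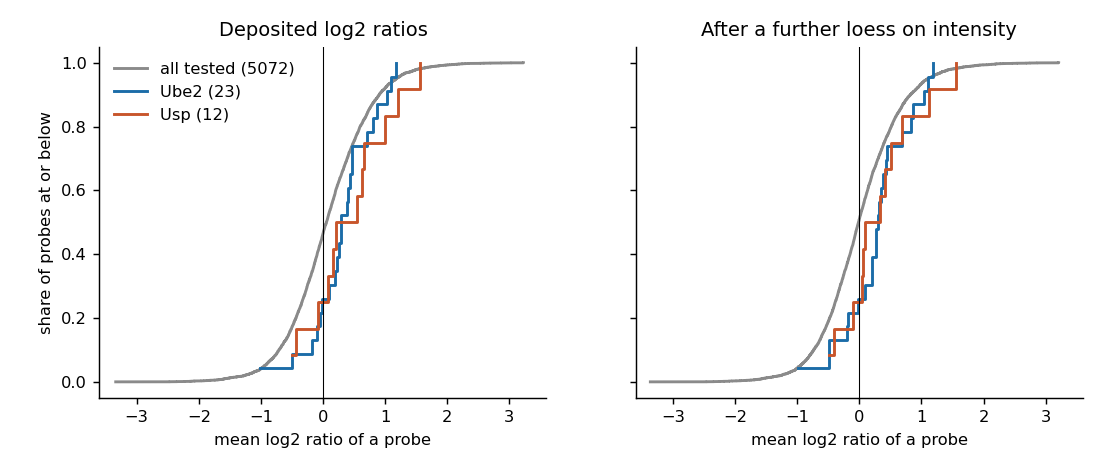
Share of probes (vertical axis) with a mean log2 ratio at or below the value on the horizontal axis, for the 5072 tested probes (grey), 23 Ube2 probes (blue) and 12 Usp probes (orange). Deposited ratios are on the left and ratios after a further loess on intensity on the right; both family curves lie mostly to the right of the grey curve, with medians of 0.29 and 0.38 against 0.06 on the left and 0.31 and 0.21 against -0.02 on the right.

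**Figure D4:**
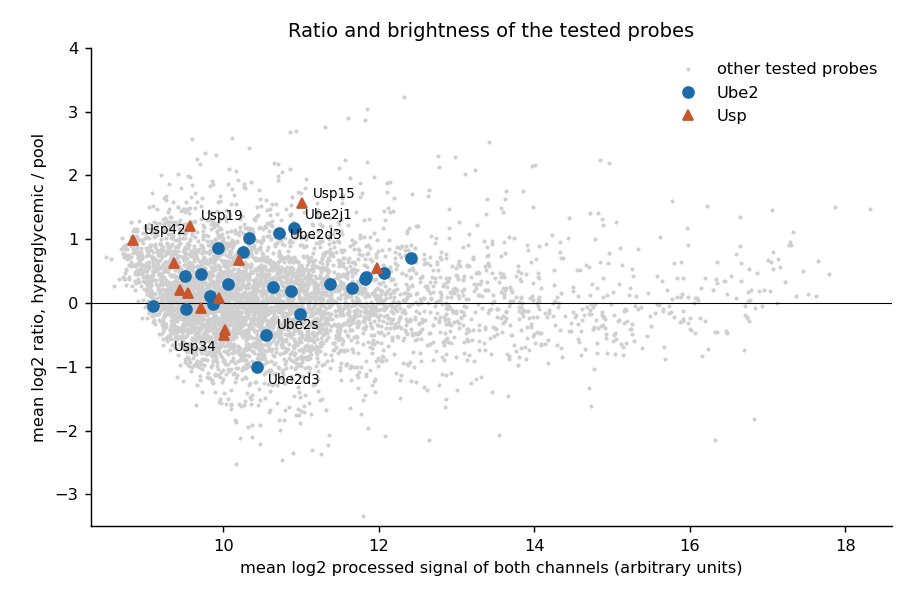
Mean log2 ratio (vertical axis) against the mean log2 processed signal of both channels (horizontal axis, arbitrary units) for the tested probes (grey), Ube2 (blue circles) and Usp (orange triangles). Usp42 lies at the dim edge of the cloud, where ratios of all probes were higher, and Usp15, Ube2j1 and the Ube2d3 probes lie away from it.

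Signals rebuilt from the scanner's spot values gave smaller ratios for 16 of the 17 called members. The exception was the called Ube2b probe, at 0.72 without background correction and 0.76 with offset 50, against 0.71 in the deposited ratios. Without background correction and with loess, all 17 called members kept their direction and 11 kept their call, where 32.6% of all probes were called, 19.7% higher and 12.9% lower. There Usp15 was at 1.02, Ube2j1 at 0.81 and the Ube2d3 probes at 0.79 and -0.56. The calls lost there included those of Ube2l3, Ube2s, Usp1, Usp34 and Usp48. With normexp background correction and an offset of 50 the same 17 kept their direction but 0 were called in limma. Over all probes 1.83% were called there. An unadjusted limma p under 0.05 was reached there by 5 of the 35 members and by 1159 of all 5071 probes tested. When scanner signals were centred on their median in place of loess, the median of all tested probes was -2.55 and all 35 members lay below 0, so every direction given here as higher turned under that scaling.

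RefSeq start sites were matched by symbol for 21 of the 27 measured genes. Of 17 start sites of 11 Ube2 genes, 14 held the GC box GGGCGG on either strand within the 250 bases before the start, and of 10 start sites of as many Usp genes 7 did, against 32.7% of 32851 start sites of all genes. The CCAAT box was in 4 of the 17 and 1 of the 10 (33.8% of all), the TATAAA box in 2 and 1 (12.4%), and the E-box CACGTG in 2 and 1 (6.02%). No searched motif contains another. Median GC content of these windows was 70.8% for Ube2 and 69.6% for Usp, against 52.4% for all. A match describes these letters and shows no binding. By gene, the GC box was found for 10 of the 11 Ube2 and 7 of the 10 Usp genes. The other measured genes were not searched as a group, so these shares are not shown to be particular to either family. The windows before the start of 3 genes called higher (Usp15, Usp19, Ube2j1), of Ube2d3 with its opposite probes, and of the lower Ube2s and Usp34 are printed 5′ to 3′ in the direction of the gene, from build GRCm38.p6, with GC boxes of either strand in capitals. Ube2d3 has 4 start sites in the table, of which the first is shown. Ube2e3, Ube2g2, Ube2o, Usp1 and Usp42 were among those with no entry.
Usp15 (chr10:123197020-123197269, minus strand): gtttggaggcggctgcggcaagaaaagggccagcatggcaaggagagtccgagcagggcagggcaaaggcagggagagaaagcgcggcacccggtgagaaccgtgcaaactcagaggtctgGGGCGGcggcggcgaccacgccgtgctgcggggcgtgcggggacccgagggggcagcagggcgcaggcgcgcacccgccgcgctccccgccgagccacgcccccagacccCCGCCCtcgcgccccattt
Usp19 (chr9:108490426-108490675, plus strand): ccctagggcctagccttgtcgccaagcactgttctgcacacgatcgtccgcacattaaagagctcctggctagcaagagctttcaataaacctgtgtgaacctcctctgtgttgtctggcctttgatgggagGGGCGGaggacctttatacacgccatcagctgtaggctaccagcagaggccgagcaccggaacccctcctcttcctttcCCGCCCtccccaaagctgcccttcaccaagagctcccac
Ube2j1 (chr4:33031130-33031379, plus strand): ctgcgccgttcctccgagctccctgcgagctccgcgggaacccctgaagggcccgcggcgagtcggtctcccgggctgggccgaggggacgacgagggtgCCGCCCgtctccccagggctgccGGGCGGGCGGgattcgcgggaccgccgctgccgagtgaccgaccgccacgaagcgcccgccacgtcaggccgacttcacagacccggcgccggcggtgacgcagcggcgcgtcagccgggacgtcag
Ube2d3 (chr3:135437982-135438231, plus strand): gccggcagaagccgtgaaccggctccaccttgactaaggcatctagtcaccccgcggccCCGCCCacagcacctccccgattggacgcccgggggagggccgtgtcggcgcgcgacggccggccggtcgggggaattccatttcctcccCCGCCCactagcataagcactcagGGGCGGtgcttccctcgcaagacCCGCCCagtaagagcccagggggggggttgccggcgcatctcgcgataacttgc
Ube2s (chr7:4812341-4812590, minus strand): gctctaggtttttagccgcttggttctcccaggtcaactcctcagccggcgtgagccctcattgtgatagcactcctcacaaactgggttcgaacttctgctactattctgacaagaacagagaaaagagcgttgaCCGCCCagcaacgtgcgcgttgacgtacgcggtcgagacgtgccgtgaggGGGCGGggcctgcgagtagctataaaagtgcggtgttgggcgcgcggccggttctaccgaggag
Usp34 (chr11:23306645-23306894, plus strand): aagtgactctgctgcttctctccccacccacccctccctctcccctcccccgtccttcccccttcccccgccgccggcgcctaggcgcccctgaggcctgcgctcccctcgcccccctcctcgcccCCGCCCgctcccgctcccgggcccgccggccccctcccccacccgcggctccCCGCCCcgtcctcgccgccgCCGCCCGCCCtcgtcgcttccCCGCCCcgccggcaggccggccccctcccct

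All 6 printed windows had GC boxes, 2 for Usp15, 2 for Usp19 and 3 for Ube2j1, 4 for Ube2d3, and 2 for Ube2s and 5 for Usp34. The TATAAA box was found before Ube2l3 and Usp19, both called higher, and before Ube2s, which was lower on 1 of its probes.

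Probes of the rest of the ubiquitin pathway were also called in both directions, where 25.1% of all tested probes were called higher and 18.4% lower. Of 19 measured probes of ubiquitin and like modifiers 3 were called higher (15.8%) and 3 lower (15.8%), with a median of 0.01. Both shares lie below those of all tested probes. The polyubiquitin gene Ubb was at -0.26 ± 0.01 and was not called. Urm1, a modifier that also donates sulfur to transfer RNA, was at 1.15 ± 0.52, and Ubl3, a membrane-anchored ubiquitin-like protein, at 0.95 ± 0.26 and 0.73 ± 0.43. Sumo2, a ubiquitin-like modifier, was lower at -0.73 ± 0.11. Of 2 measured activating enzymes Ube1l, which activates ISG15, was lower at -1.02 ± 0.55.

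Ligases were called higher on 12 of 34 probes (35.3%) and lower on 4 (11.8%), against 25.1% and 18.4% of all tested probes, with a median of 0.24. The scaffold cullins Cul4b and Cul3 were at 1.52 ± 0.01 and 1.02 ± 0.09, and the SUMO-targeted ligase Rnf4 at 1.08 ± 0.09 on 1 probe and -0.15 ± 0.30 on another. Their RING partner Rbx1 was at 1.05 ± 0.25, -0.07 ± 0.16 and -0.47 ± 0.13 on its 3 probes, which disagree as those of Ube2d3 do. Genes listed by name as deubiquitinases outside the Usp family were called higher on 4 of 9 probes (44.4%) and lower on 2 (22.2%). The same shares of all tested probes apply. Otud3 was at 2.58 ± 0.24, the endosomal Stambp at 1.58 ± 0.60 and Otud5 at 0.54 ± 0.11. Josd3, which is counted there by its name alone and may be no deubiquitinase, was lower at -0.53 ± 0.20.

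Markers of several cell types moved on the same arrays. All 7 measured T cell probes were lower (-1.86 to -0.91, median -1.21), as were 3 of 6 B cell probes (-1.12 to 1.17, median -0.44), of which 1 was higher. Of the exocrine pancreas probes 9 of 13 were higher (0.13 to 1.11, median 0.67), and so were 8 of 8 red cell probes (0.78 to 1.75, median 1.13). Over all tested probes 25.1% were called higher and 18.4% lower. The lymphocyte markers of the labelled tissue were thus detected, and none of the 9 islet endocrine probes was in the table. In a whole tissue, fewer cells of a type and less RNA per cell cannot be told apart, and the part of any of these in the Ube2 and Usp ratios was not tested. The median Cy5 signal was 37.7 and 38.2 on the arrays over a local background of 35, and the median Cy3 signal 234 and 81.2 over 31 and 31.5, so the hyperglycemic channel limits the precision, as does the number of arrays.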

How the data were processed

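RNA of each hyperglycemic mouse (Cy5) and of the euglycemic pool (Cy3) was hybridised to Agilent-014868 arrays, both on 1 slide. Agilent Feature Extraction, version 10.7.3.1, made the scanner files, per the file headers. In them the mean spot and local background signals are deposited as intensity values with no normalization. The processed signals, also intensity per the file headers, were background-subtracted, spatially detrended, replaced by substitute values where not above background, and dye-normalized by a linear factor and LOWESS. The software's log ratio is log10 of Cy5 over Cy3, per the file headers. The authors' deposited table holds log2 ratios of 5072 gene probes and 26 controls. They equal the software's ratios within 0.001 on both arrays for 5040 gene probes, which settles scale and direction. Column medians are 0.08 and 0.03, and no centring was added. Of the 5072 probes 5068 exceeded background by the software's own criterion in Cy3 and Cy5 on each array, and no other gene probe did. The list thus nearly equals the set passing that criterion, though the authors' own rule is not given in the sources used here. Members dim in Cy5 are therefore left out. Of the members outside the table, 26 were well above background in Cy3 on both arrays and 2 in Cy5 on both. Over all gene probes outside it these counts were 3352 and 236.

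The mean deposited log2 ratio of a probe was tested against 0 with limma 3.58.1 under R 4.3.3 (two-sided, 1 residual degree of freedom, 6.30 prior degrees), with Benjamini-Hochberg adjustment over all 5072 probes, and the procedure was tested on simulated data. All adjusted p-values are limma's. The mice are separate animals, but 1 pool is the only control. Scanner-signal alternatives used normexp or no background correction and loess (span 0.3), leaving out flagged spots. The members, gene lists and tests were chosen with earlier results of these data known. The text gives values for every called member, every gene with several measured probes and the brightest uncalled members; values of some genes are not reported here, though the counts and medians include them. Of the 188 members 138 were matched to RefSeq by accession, and genes the array lists under older names (Hip2, now Ube2k, with 2 measured probes) are not counted. Probe positions are those of mm8 in the files; exon or UTR positions were not analysed here.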

Additional observations from a re-analysis of the deposited data

How the results depend on the processing

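No paired analysis was possible because both arrays carry 1 shared euglycemic pool. Leaving out a mouse leaves 1 array and no test, so it gives no counts; the Ube2 minus Usp median was -0.082 and ran from -0.052 to 0.0392 over the single arrays. It was 0.0916 after a further loess, 0.0843 with 1 probe per gene name, 0.0597 in the software's ratios of all gene probes, 0.0288 in scanner signals (offset 50, loess) of probes above background in at least 1 channel, and -0.0021 and -0.00044 in scanner signals of the same probes with offsets 50 and 10. In the software's ratios of probes above background in at least 1 channel it was -0.145, and in scanner signals without background correction -0.0365. Against 1274 higher and 931 lower probes in the deposited ratios, scanner signals of the same probes gave 93 and 0 with offset 50 and 0 and 0 with offset 10, and no Ube2 or Usp call (0 higher, 0 lower). The software's ratios gave 0 higher and 0 lower over all probes, Ube2 and Usp alike, with either wider probe set. Unadjusted p under 0.05 was reached by 1131 probes with offset 10, and by 3385 and 4291 in the software's ratios; these 2 wider sets include dim probes. Scanner signals with offset 50 and at least 1 channel above background gave 420 higher and 43 lower, with 1 Ube2 probe (Ube2b) higher, 0 lower, and 0 Usp probes. Without background correction 1 Ube2 and 0 Usp probes were lower, and with 1 probe per gene name 0 Ube2 probes were lower, since the lower probes of Ube2d3 and Ube2s were the dimmer ones. The cause of the other changes was not tested.

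Median centring of scanner signals put the median of all tested probes at -2.55, so 0 were called higher and 5070 lower, among them 23 Ube2 and 12 Usp probes, and the difference of the family medians was -0.25. Relative to that median 14 of the 17 called members kept their direction, and those that did not included the bright Ube2b and Usp7 probes. Values that turned negative were -2.98 and -2.98 for Ube2b, -2.03 for Ube2d3, -2.29, -1.81 and -1.93 for Ube2e1, Ube2e2 and Ube2e3, -2.04 for Ube2g2, -2.20 for Ube2j1, -1.89 for Ube2l3, -2.12 for Ube2o, -2.58 and -1.73 for Ube2r2, -2.69 for Ube2v1, -2.12 for Usp1, -1.91 for Usp15, -2.31 for Usp16, -1.55 for Usp19, -1.87 for Usp25, -1.96 for Usp38, -1.14 for Usp42, -1.56 for Usp48 and -2.94 for Usp7. Under the other alternatives every called member that was present kept its direction.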

Other observations

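Ube2k, an E2 that builds Lys48 chains, is listed on the array under its older name Hip2 and so falls outside the name rule. Its 2 measured probes read -0.56 and -0.11, and 0.37 and 0.43, in mice 1 and 2, and neither was called (limma adjusted p = 0.157 and 0.0695).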
